A study of Homo sapiens with 18 samples.

Results

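The genes described here are 8 leukocyte adhesion molecules of endothelium, ICAM1, VCAM1, SELE, ICAM2, JAM2, F11R, CD99 and ALCAM, found by their symbols among the 62754 genes of the gene count matrix. They filled 9 rows, because CD99 is listed on both the X and the Y chromosome. EA.hy926 is an immortal human line made by fusing umbilical vein endothelial cells with a lung carcinoma line, and all libraries came from this 1 line. Transfection was with reagent alone (Mock), with a non-targeting siRNA at 10 nM (siNT) or with a pool of siRNAs against ELMO1 at the same dose (siELMO1). ELMO1 is a cytoplasmic protein that helps to activate the small GTPase RAC1. All cultures were starved of serum before sampling, and 48 h after transfection RNA was taken either at once (0 h) or after a further 24 h with 1 μg/ml poly(I:C), a synthetic double-stranded RNA that stimulates TLR3. Each of the 6 conditions had 3 libraries, described by the study as biological replicates with no account of separate culture days, so p-values measure only the spread between these libraries, and 18 libraries were sequenced in all. No culture was sampled 24 h later without poly(I:C), so the effect of poly(I:C) and that of the further time in culture cannot be told apart. For the same treatment the study reports massive death of siNT cells after poly(I:C), much less in Mock, and its inhibition in siELMO1. Its authors regard this death as the likely reason for lower inflammatory transcripts in siNT. The part of cell death in the comparisons below that use siNT after poly(I:C) was not tested. Without poly(I:C), the study also reports fewer cells in siELMO1 than in Mock and siNT, and a smaller share of them in S phase. The part of these differences in the comparisons below that use siELMO1 was not tested.

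Leukocytes leave the blood by first tethering to selectins on endothelium, then arresting on immunoglobulin-like ligands of their integrins, and finally crawling between endothelial cells through the junctions. SELE (E-selectin) supports tethering and rolling, VCAM1 and ICAM1 are integrin ligands that cytokines and microbial RNA induce through NF-kB, and ICAM2 is an integrin ligand present on resting endothelium. F11R (JAM-A), JAM2 (JAM-B) and CD99 sit at endothelial junctions and take part in passage of leukocytes between cells, and ALCAM (CD166) is a junctional immunoglobulin-like protein that binds CD6 on T cells and other ALCAM molecules.

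The 18 libraries held 40.4 to 73.9 M estimated counts each. These counts are derived from coverage and the read length given to the count script is not given in the sources used here. The totals exceed the read pairs that the study's methods describe, so a count need not be a sequenced fragment and the totals overstate the precision. Levels are given as CPM (counts per M counts of the library, after TMM scaling), as mean ± SD with n = 3 libraries. The limit at a count of 0 is taken as 3 counts, between 0.0383 and 0.0752 CPM in these libraries, and it is nominal for the same reason and covers counting error only. The targeted gene, ELMO1, had 0.340 ± 0.0687 CPM after its siRNAs at 0 h, where Mock had 3.02 ± 0.0290 and siNT 2.94 ± 0.339 CPM. At 24 h the values were 0.267 ± 0.104 CPM in siELMO1, 2.32 ± 0.737 in Mock and 3.31 ± 0.307 in siNT, so that every siELMO1 library was below every control library. Of 10 endothelial markers 8 reached a mean of 1 CPM over all libraries. Means of CDH5, TIE1, EGFL7, PECAM1, TEK and ERG were 82.9 to 584 CPM, and those of KDR and VWF were 13.2 and 10.6 CPM. EMCN and CLDN5 stayed below 1 CPM. The summed endothelial markers were also higher in siELMO1 libraries (1758 to 2139 CPM) than in Mock or siNT libraries (1054 to 1436 CPM), and the part of such a general shift in the differences below was not tested. Among the 7 epithelial markers 2 had a mean over 1 CPM across all libraries, the keratins KRT8 and KRT18, and EPCAM reached such a mean in Mock at 0 h alone (1.07 ± 0.160 CPM). The summed level of the 7 epithelial markers at 0 h was 765 to 792 CPM in Mock, 812 to 817 in siNT and 976 to 1086 in siELMO1. At 24 h it was 484 to 494, 533 to 545 and 533 to 627 CPM in the same order. The part of this shift in the differences below was not tested either. CDH1 was at 0 in every library. Of the defining leukocyte markers, PTPRC was at no more than 0.496 CPM, CD14 at no more than 0.197 CPM and CD3E at 0, and of 4 fibroblast markers none reached a mean of 1 CPM in any condition. ITGA4, an integrin subunit that leukocytes share with other cells, was higher in siELMO1 libraries than in the controls at 0 h (114 to 121 against 75.8 to 80.5 CPM) and at 24 h (66.7 to 77.7 against 37.2 to 58.7 CPM). The lysozyme gene LYZ was at 5.72 ± 1.61 CPM in siELMO1 at 24 h, and at means of 1.99 to 3.22 CPM in the other conditions. The part of these genes in the differences was not tested. The 3 libraries of siELMO1 at 0 h were not alike. Counts of replicate 1 differed from those of replicates 2 and 3 with a chi-square per degree of freedom of 70.5 and 78.8, against 10.1 to 29.1 between all other pairs of libraries of a condition. Replicates 2 and 3 had the lowest totals (40.4 and 51.0 M) and the highest mitochondrially encoded shares (4.02% and 3.95%), where replicate 1 had 1.86% and the other 15 libraries 1.31% to 2.42%. The part of this in the results was not tested. Results that changed when replicate 1 alone stood for siELMO1 at 0 h, a refit chosen after seeing the data in which a lone library is assumed to vary like the other groups, are given below. In bulk libraries, fewer cells of a type and less RNA per cell cannot be told apart.

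Among the 8 genes, 5 passed the filter on low counts (ICAM1, ICAM2, F11R, CD99 and ALCAM), and VCAM1, SELE and JAM2 did not. The changes below are from edgeR's quasi-likelihood test, with p-values adjusted over the 15167 genes tested, and a gene is called at an adjusted p under 0.05. Many genes were called in every comparison. In siNT against Mock at 0 h 1 of the 5 genes tested was higher (ICAM1) and 2 were lower (ICAM2 and CD99), where 27.6% and 24% of all genes tested were. In siELMO1 against Mock at 0 h 4 were higher and 1, ICAM2, was lower, beside 27.9% and 22.4% of all genes, and 3 of the 5 were called (ICAM1, F11R and ALCAM) with replicate 1 alone for siELMO1. In siELMO1 against siNT at 0 h 4 were higher and 0 lower, beside 31.3% in each direction, and ICAM2 was the gene not called. At 24 h siNT against Mock had 2 higher (ICAM2 and CD99) and 2 lower (ICAM1 and ALCAM), beside 25.2% and 24.9% of all genes. There siELMO1 against Mock had 4 higher and 1, ICAM1, lower, beside 21.6% and 22%. In siELMO1 against siNT at 24 h 4 were again higher and 0 lower, beside 26% and 26.5%. The 5 genes are too few for these shares to say more than which genes were called, and comparisons with Mock or with siNT share those control libraries.

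After poly(I:C), 3 of the 5 rose in Mock (ICAM1, F11R and ALCAM) and 1, ICAM2, fell, beside 30.7% and 29.6% of all genes tested. In siNT 3 rose (ICAM1, ICAM2 and CD99) and 0 fell, beside 28.6% and 25.2%. In siELMO1 3 rose (ICAM1, ICAM2 and F11R) and 0 fell, beside 28% and 26.9%. The differences between these responses, tested as interactions in the same model, were called for 2 genes upward and 2 downward in siNT less Mock (15% and 16% of all genes), 1 and 2 in siELMO1 less Mock (13.8% and 14.6%), and 1 and 1 in siELMO1 less siNT (16.7% and 17.8%). The median log2 change of all genes tested lay between -0.018 and 0.041 in every comparison.

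**Figure D1:**
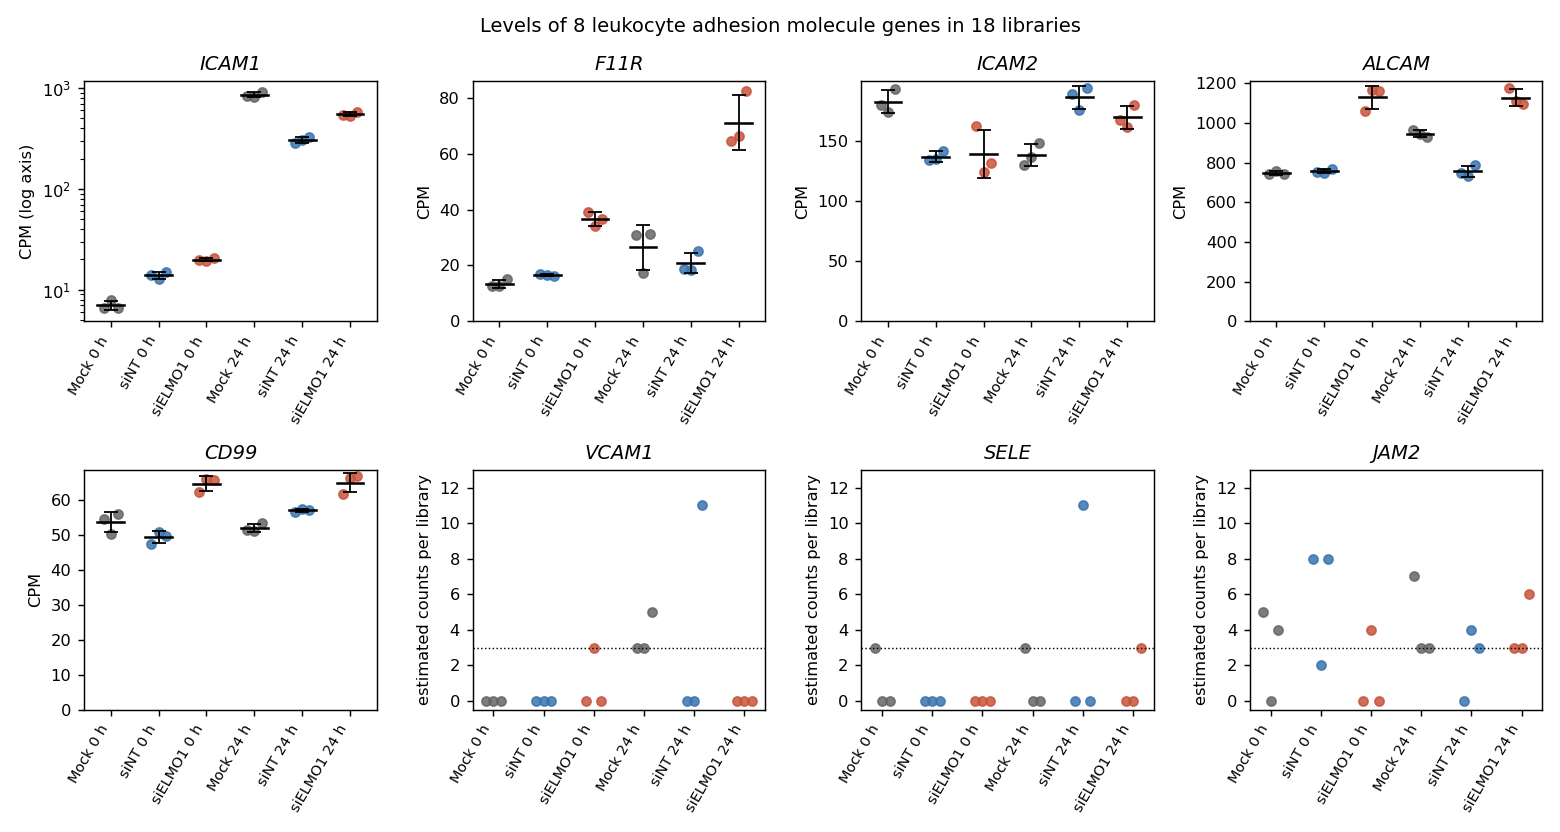
Level of each of the 8 genes in the 18 libraries, by condition. For ICAM1, ICAM2, F11R, ALCAM and CD99 the vertical axis is CPM (log axis for ICAM1), points are libraries, and the bar and whiskers are the mean and SD of 3 libraries; for VCAM1, SELE and JAM2 it is the estimated count, with a dotted line at 3 counts. ICAM1 lies between 6.55 and 20.7 CPM at 0 h and between 288 and 914 CPM at 24 h, while VCAM1 and SELE are at 0 in most libraries.

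Before the values, the sequences upstream of the 3 inducible genes are shown, because these 3 are textbook NF-kB targets and only ICAM1 RNA was present above the limit of 3 counts in every library. RefSeq start sites (GRCh38.p14) were given for 5 of the 8 genes, and 250 bases before each start were searched on both strands for an NF-kB consensus, an interferon-stimulated response element and 3 shorter motifs. The AP-1 motif was searched as TGANTCA. That of GATA factors was searched as the letters AGATAA. For the TATA box the letters were TATAAA. Bases that GENCODE annotates as exon of the gene are left out of the runs, and capitals mark motifs found. The SELE run lies within an intron of longer SELE transcripts in that annotation.
ICAM1 (chr19:10270870-10271092, plus strand): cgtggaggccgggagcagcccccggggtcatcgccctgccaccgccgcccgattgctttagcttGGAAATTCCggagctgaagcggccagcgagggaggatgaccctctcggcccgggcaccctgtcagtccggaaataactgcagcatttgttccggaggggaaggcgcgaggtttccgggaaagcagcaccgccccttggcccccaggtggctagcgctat
VCAM1 (chr1:100719492-100719741, plus strand): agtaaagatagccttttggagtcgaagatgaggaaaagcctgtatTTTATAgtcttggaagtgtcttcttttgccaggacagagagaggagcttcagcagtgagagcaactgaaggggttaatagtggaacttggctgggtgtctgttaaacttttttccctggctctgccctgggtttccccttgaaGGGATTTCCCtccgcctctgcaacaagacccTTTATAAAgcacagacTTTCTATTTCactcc
SELE (chr1:169734124-169734329, minus strand): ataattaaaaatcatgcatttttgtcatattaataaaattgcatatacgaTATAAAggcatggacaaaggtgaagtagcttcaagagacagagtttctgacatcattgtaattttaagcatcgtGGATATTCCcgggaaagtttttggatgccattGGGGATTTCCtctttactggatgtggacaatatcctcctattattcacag
The NF-kB consensus was found in the VCAM1 and SELE windows, as it was in 5.2% of 35093 upstream windows of the same length. The ICAM1 window held no match to that consensus. A shorter palindrome, GGANNNTCC, was searched after the ICAM1 letters had been seen. It was found in ICAM1 and SELE and in 7.8% of all windows. The TATA box was in all 3 windows (10.7% of all windows), in ICAM1 across the end of the printed run, and the interferon-stimulated response element in VCAM1 alone of the 3 (3.02%). The VCAM1 TATA matches on opposite strands overlap each other. Neither the AP-1 letters (6.57%) nor the GATA letters (9.17%) were in any of the 3 windows, and the ALCAM and CD99 windows held none of the 6 motifs searched. These matches are letters in a window and no binding was measured.

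ICAM1, the integrin ligand on which leukocytes arrest firmly, was the member that poly(I:C) raised most in all transfections. The gene (ENSG00000090339.9) lies on the plus strand at chr19:10271093-10286615. At 0 h ICAM1 stood at 6.63, 7.91 and 6.55 CPM in the libraries of Mock, 14.0, 12.9 and 15.0 CPM in those of siNT and 19.6, 19.5 and 20.7 CPM in those of siELMO1. The 3 groups did not overlap: Mock was lowest and siELMO1 highest. Against Mock, ICAM1 was 1.99-fold higher in siNT (log2 fold change 0.99 ± 0.079 SE, adjusted p = 1.3e-08) and 2.83-fold higher in siELMO1 (1.50 ± 0.079, adjusted p = 3.5e-11), and siELMO1 was 1.42-fold above siNT (0.51 ± 0.075, adjusted p = 1.3e-05).

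At 24 h the order of the groups was different. ICAM1 stood at 838, 819.8 and 914 CPM in Mock, at 288, 303 and 326 CPM in siNT, and at 540.4, 533 and 579 CPM in siELMO1. Again no libraries of different groups overlapped, but Mock was now highest and siNT lowest. The part of cell death in the siNT cultures in this order was not tested. In siNT ICAM1 was 2.81-fold lower than in Mock (log2 fold change -1.49 ± 0.069, adjusted p = 4.8e-11), in siELMO1 1.56-fold lower than in Mock (-0.64 ± 0.068, adjusted p = 7.3e-07) and 1.80-fold higher than in siNT (0.85 ± 0.069, adjusted p = 1.9e-08).

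From 0 to 24 h ICAM1 rose 122-fold in Mock (log2 change 6.93 ± 0.090, adjusted p = 5e-19), 21.8-fold in siNT (4.45 ± 0.080, adjusted p = 4.4e-17) and 27.6-fold in siELMO1 (4.79 ± 0.081, adjusted p = 9.4e-18). The response was smaller than in Mock by 2.48 ± 0.10 log2 units in siNT (adjusted p = 1.2e-10) and by 2.14 ± 0.10 in siELMO1 (adjusted p = 3.5e-10). On this log scale the higher starting levels of the siRNA groups enter the difference together with their lower levels at 24 h. Between the siRNA groups the response was larger in siELMO1 by 0.34 ± 0.10 log2 units (95% confidence interval 0.13 to 0.55, adjusted p = 0.015). Without replicate 3 of siNT at 0 h that difference was 0.29 and no longer called (adjusted p = 0.051), and over all alternatives it ran from 0.29 to 0.39.

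Nearly all ICAM1 counts were assigned to a single transcript, ENST00000264832.8, with 7 exons and a mean share from 98.6% to 99.8% in the 6 conditions. The long noncoding genes LIMASI and ICAM4-AS1 overlap ICAM1 on the opposite strand, and whether the counting used strand is not given in the sources used here. LIMASI reached at most 0.299 CPM and ICAM4-AS1 at most 1.05 CPM in any library, far below ICAM1. Genes whose pattern over the 18 libraries was most like that of ICAM1 were GBP3, N4BP1 and GSAP (Pearson r of log2 CPM of 0.995 for each, among 12872 genes). The libraries form separate sets at 0 and 24 h and share their depths, so these r describe mainly that step. GBP3, an interferon-induced guanylate-binding protein, went from 33.0 ± 1.34 to 253 ± 12.1 CPM in Mock, from 41.0 ± 1.75 to 148 ± 21.9 CPM in siNT and from 45.1 ± 6.06 to 204 ± 10.0 CPM in siELMO1, with the same order of groups at both times as ICAM1.

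**Figure D2:**
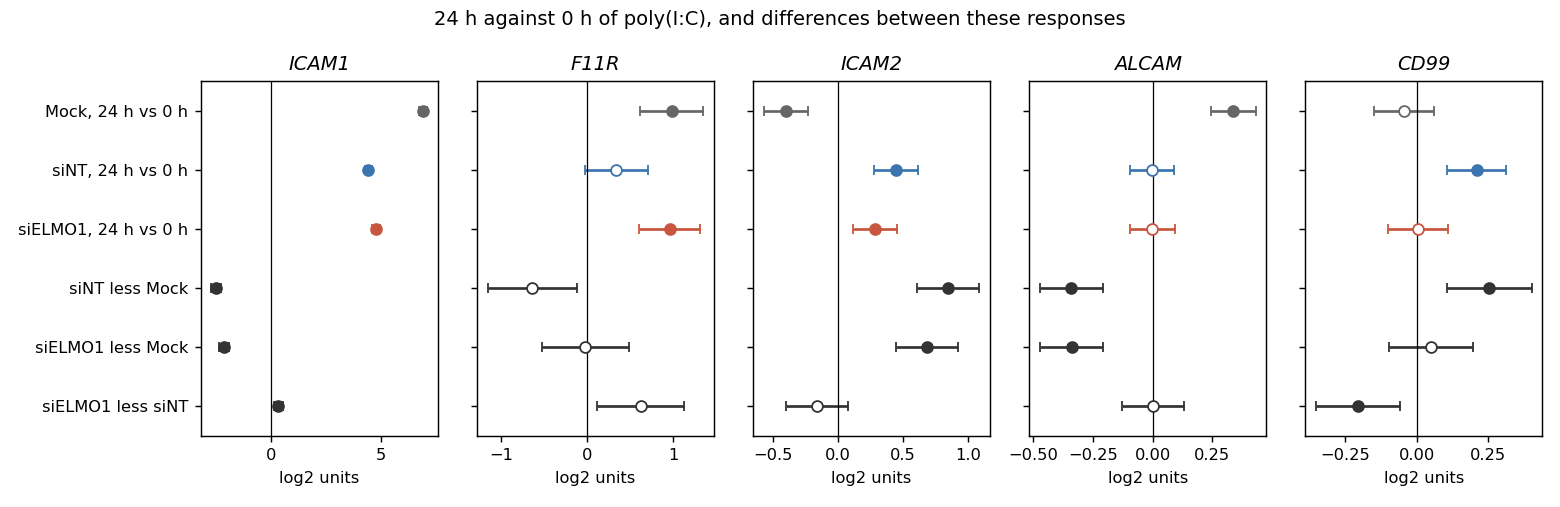
Change from 0 to 24 h of poly(I:C) in each transfection, and differences between these changes, for the 5 genes tested. The horizontal axis is in log2 units and differs between panels; points are estimates from edgeR, whiskers are 95% confidence intervals, and filled points passed an adjusted p under 0.05. ICAM1 rises by 4.45 to 6.93 log2 units, and ICAM2 falls in Mock and rises in both siRNA groups in this fit of all libraries.

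VCAM1, the integrin ligand that arrests lymphocytes and monocytes, was close to absent. The gene (ENSG00000162692.12) lies on the plus strand at chr1:100719742-100739045. It had 25 counts in all 18 libraries together, and 13 libraries were at 0. At 0 h a single library, replicate 2 of siELMO1, held 3 counts. At 24 h the Mock libraries held 3, 3 and 5 counts, replicate 3 of siNT held 11 and the other two siNT libraries 0, and all siELMO1 libraries were at 0. The largest value was 0.192 CPM, in that siNT library alone, and no fold is given between groups whose libraries lie mostly at or under the limit of 3 counts. In a fit of all 37970 genes with any count VCAM1 had an unadjusted p under 0.05 in 6 of 12 comparisons, and its lowest adjusted p was 0.12.

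SELE, the selectin on which leukocytes roll, was detected still less. The gene (ENSG00000007908.16) lies on the minus strand at chr1:169722640-169764705. Its 18 libraries summed to 20 counts, with 14 at 0. Replicate 1 of Mock held 3 counts at each time, replicate 3 of siELMO1 held 3 at 24 h, and replicate 2 of siNT at 24 h held 11 counts (0.196 CPM). The libraries with the most counts of SELE and of VCAM1 were thus different siNT libraries of the same condition. Isolated values of exactly 3 counts recur in SELE and VCAM1. The lowest adjusted p of SELE without the filter was 0.21. The gene C1orf112, at 6.52 to 23.5 CPM, runs through the SELE locus on the opposite strand.

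JAM2, a junctional partner of leukocyte integrins, gave 63 counts over the 18 libraries, from 0 to 8 in a library. Its gene (ENSG00000154721.15) lies on the plus strand at chr21:25639258-25717562. The counts were 5, 0 and 4 in Mock, 8, 2 and 8 in siNT, and 0, 4 and 0 in siELMO1 at 0 h, and 7, 3 and 3, 0, 4 and 3, and 3, 3 and 6 in the same order at 24 h. All conditions overlapped. Its lowest adjusted p without the filter was 0.54, and at this depth no difference in JAM2 was detectable. The end of JAM2 overlaps ATP5PF on the opposite strand, a gene of the mitochondrial ATP synthase at 34.4 to 46.4 CPM.

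F11R, which encodes the tight-junction protein JAM-A, differed more between siELMO1 and siNT than any other of the 5 genes tested, at both times. The gene (ENSG00000158769.18) lies on the minus strand at chr1:160995211-161021343. At 0 h the Mock libraries held 12.5, 12.7 and 15.0 CPM of F11R, the siNT libraries 16.8, 16.6 and 16.2 CPM and the siELMO1 libraries 39.0, 34.3 and 36.8 CPM. All siELMO1 libraries were above all controls, and siNT was just above Mock without overlap. F11R was 2.74-fold higher in siELMO1 than in Mock (log2 fold change 1.45 ± 0.17, adjusted p = 1.9e-06) and 2.22-fold higher than in siNT (1.15 ± 0.17, adjusted p = 1.5e-05), while siNT against Mock was not called (0.30 ± 0.17, adjusted p = 0.16). In a fit of the libraries compared alone that value was 0.27 and called (adjusted p = 0.012).

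At 24 h F11R stood at 31.1, 17.2 and 31.2 CPM in the libraries of Mock, 18.9, 18.5 and 25.2 CPM in those of siNT and 64.7, 66.5 and 82.7 CPM in those of siELMO1. The siELMO1 libraries were again the highest, and Mock and siNT overlapped because replicate 2 of Mock was far below the other two. siELMO1 was 2.69-fold above Mock (log2 fold change 1.43 ± 0.17, adjusted p = 2.7e-06) and 3.41-fold above siNT (1.77 ± 0.17, adjusted p = 2e-07). For siNT against Mock the value was -0.34 ± 0.17 (adjusted p = 0.11), and it was called at -0.58 without replicate 2 of Mock (adjusted p = 0.0012) and at -0.50 without replicate 3 of siNT at 24 h (adjusted p = 0.034).

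F11R rose 1.97-fold after poly(I:C) in Mock (log2 change 0.98 ± 0.17, adjusted p = 1e-04) and 1.94-fold in siELMO1 (0.96 ± 0.17, adjusted p = 0.00011). In siNT the value was 0.34 ± 0.17 (adjusted p = 0.11), although its libraries at 0 and 24 h did not overlap, and 0.32 in a fit of the libraries compared alone (adjusted p = 0.036). The differences between responses missed the threshold, at -0.64 ± 0.25 in siNT less Mock and 0.62 ± 0.24 in siELMO1 less siNT (adjusted p = 0.056 for each). With the replicate number as a block they were -0.64 (adjusted p = 0.024) and 0.63 (adjusted p = 0.021), and in a fit of the libraries compared alone the latter was 0.62 (adjusted p = 0.013). Without replicate 2 of Mock at 24 h the first was -0.88 (adjusted p = 0.00092). Without replicate 3 of siNT at 24 h these differences were -0.80 and 0.78 (adjusted p = 0.021 for each). Transcript ENST00000368026.11, with 10 exons, took 97.9% to 99.3% of F11R counts on average in each condition, and a readthrough gene that shares its strand reached at most 0.0909 CPM.

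**Figure D3:**
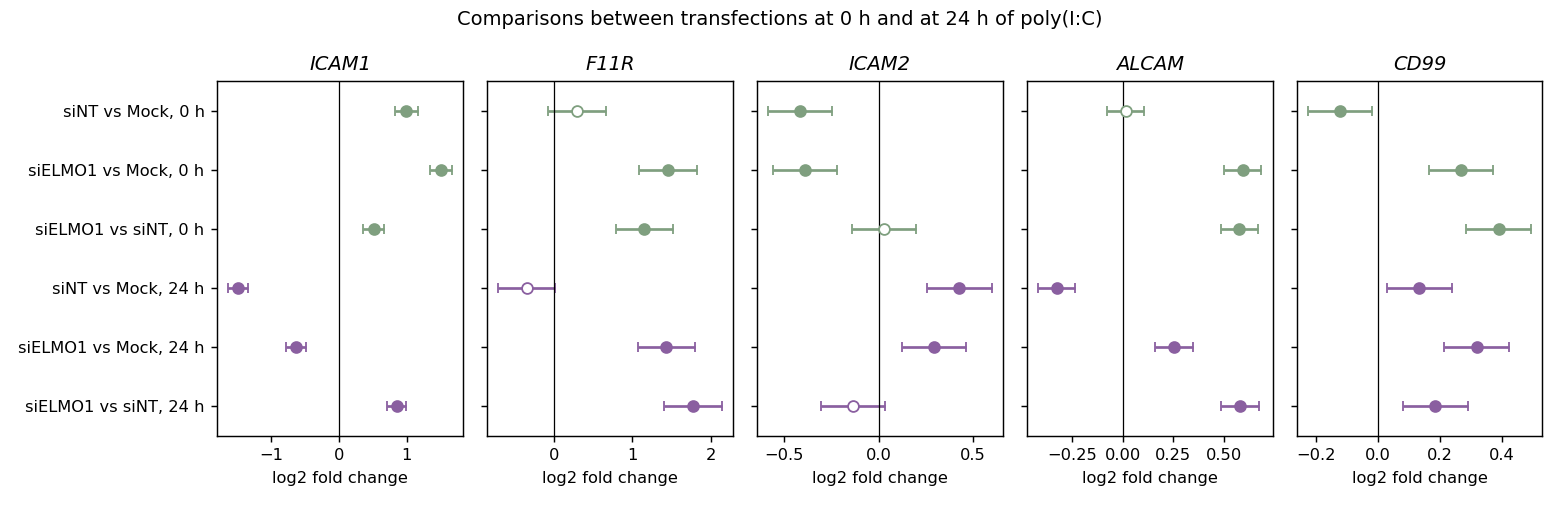
Comparisons between transfections at 0 h (green) and 24 h (purple) for the 5 genes tested. The horizontal axis is the log2 fold change, on a scale that differs between panels; points are estimates from edgeR, whiskers are 95% confidence intervals, and filled points passed an adjusted p under 0.05. F11R is higher in siELMO1 than in either control by 1.15 to 1.77, whereas ICAM1 in siELMO1 is above Mock at 0 h and below it at 24 h.

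ICAM2, the integrin ligand of resting endothelium, fell after poly(I:C) in Mock and rose in siNT, and in siELMO1 its rise depended on the libraries used at 0 h. The gene (ENSG00000108622.11) lies on the minus strand at chr17:64002594-64020634. At 0 h the Mock libraries held 180.0, 174 and 193 CPM of ICAM2, the siNT libraries 134, 135 and 142 CPM and the siELMO1 libraries 162, 124 and 131 CPM. Every siRNA library was below every Mock library, and replicate 1 of siELMO1 was the highest of the siRNA libraries. ICAM2 was 1.34-fold lower in siNT than in Mock (log2 fold change -0.42 ± 0.081, adjusted p = 0.00032) and 1.31-fold lower in siELMO1 (-0.39 ± 0.081, adjusted p = 0.00059). Without replicate 1 of siELMO1 the latter was -0.52 (adjusted p = 4.7e-06), and with replicate 1 alone it was -0.21 and not called (adjusted p = 0.072). siELMO1 and siNT were not distinguished at 0 h (0.03 ± 0.081, 95% confidence interval -0.14 to 0.20, adjusted p = 0.80), and the value was -0.098 without replicate 1 of siELMO1 and 0.25, called, with replicate 1 alone (adjusted p = 0.021).

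At 24 h ICAM2 stood at 130.2, 137 and 148 CPM in the libraries of Mock, 189, 175 and 194 CPM in those of siNT and 167, 161 and 180.0 CPM in those of siELMO1. The order had turned over, with every siRNA library above every Mock library. ICAM2 was 1.35-fold higher in siNT than in Mock (log2 fold change 0.43 ± 0.081, adjusted p = 0.00028) and 1.22-fold higher in siELMO1 (0.29 ± 0.081, adjusted p = 0.0069), and siELMO1 and siNT overlapped (-0.14 ± 0.081, 95% confidence interval -0.30 to 0.035, adjusted p = 0.17).

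From 0 to 24 h ICAM2 fell 1.32-fold in Mock (log2 change -0.40 ± 0.081, adjusted p = 0.00035) and rose 1.36-fold in siNT (0.44 ± 0.081, adjusted p = 0.00016). In siELMO1 the rise was 1.22-fold (0.28 ± 0.081, adjusted p = 0.0066), where replicate 1 at 0 h overlapped with the libraries at 24 h. Leaving that library out made it 0.41 (adjusted p = 5.2e-05), and with it alone at 0 h the value was 0.061 and not called (adjusted p = 0.60). The response differed from that of Mock by 0.84 ± 0.11 log2 units in siNT (adjusted p = 2.3e-05) and by 0.68 ± 0.11 in siELMO1 (adjusted p = 0.00024). With replicate 1 alone at 0 h the latter was 0.50 and still called (adjusted p = 0.0038). Between siELMO1 and siNT the difference was -0.16 ± 0.11 (adjusted p = 0.30), and -0.36 and called with replicate 1 alone (adjusted p = 0.018).

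The 3′ part of ICAM2 overlaps PRR29, a gene on the opposite strand, which ran from 17.1 to 39.9 CPM. PRR29 fell by 0.61 log2 units in Mock after poly(I:C), and rose by 0.79 in siNT and by 0.29 in siELMO1. Its direction was thus that of ICAM2 in each transfection. Between transfections PRR29 was lower in siELMO1 than in siNT at 24 h (-0.82 ± 0.067, adjusted p = 2e-08), where ICAM2 was not called. Whether reads of PRR29 entered the ICAM2 counts was not tested. ICAM2 counts were mostly assigned to ENST00000449662.6, with means of 84.3% to 90.3% in the 6 conditions. This transcript of 4 exons starts at chr17:64006932, 13701 bases inside the start of ENST00000579788.6, the canonical transcript in the annotation, and both encode 275 residues. The canonical one took 1.15% of ICAM2 counts over all libraries.

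ALCAM, the ligand of CD6, was higher in siELMO1 than in both controls at both times. Its gene (ENSG00000170017.12) lies on the plus strand at chr3:105366909-105576900 and overlaps no other annotated gene. At 0 h the Mock libraries held 741, 760.3 and 743 CPM of ALCAM, the siNT libraries 753, 749 and 768 CPM and the siELMO1 libraries 1060.0, 1166 and 1161 CPM. Mock and siNT overlapped, and all siELMO1 libraries were above both. ALCAM was 1.51-fold higher in siELMO1 than in Mock (log2 fold change 0.59 ± 0.044, adjusted p = 4.1e-09) and 1.49-fold higher than in siNT (0.58 ± 0.044, adjusted p = 3e-09), and siNT differed from Mock by 0.02 ± 0.044 (95% confidence interval -0.077 to 0.11, adjusted p = 0.79).

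At 24 h ALCAM stood at 964, 944 and 931 CPM in the libraries of Mock, 749, 731 and 786 CPM in those of siNT and 1177, 1113 and 1095 CPM in those of siELMO1. The 3 groups no longer overlapped. Compared with Mock, ALCAM was 1.25-fold lower in siNT (log2 fold change -0.33 ± 0.044, adjusted p = 9.2e-06) and 1.19-fold higher in siELMO1 (0.25 ± 0.044, adjusted p = 0.00014). siELMO1 remained 1.49-fold above siNT (0.58 ± 0.044, adjusted p = 9.6e-09).

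Mock was the only transfection in which ALCAM was called as changed after poly(I:C), with a 1.26-fold rise (log2 change 0.34 ± 0.044, adjusted p = 3.2e-06). The changes in siNT and siELMO1 were -0.0022 (95% confidence interval -0.095 to 0.091) and -0.00067 (-0.093 to 0.092), so that a rise of the size seen in Mock lies outside both intervals, and with replicate 1 alone at 0 h the value in siELMO1 was 0.086 (adjusted p = 0.21). The response was smaller than in Mock by 0.34 ± 0.062 log2 units in each siRNA group (adjusted p = 0.00044 in siNT and 0.00057 in siELMO1), with a difference of -0.21 in siELMO1 from replicate 1 alone at 0 h (adjusted p = 0.032), and the siRNA groups differed from each other by 0.0015 (-0.13 to 0.13).

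Transcript ENST00000306107.9 of ALCAM, with 16 exons and 583 residues, held 90.5% to 94.3% of ALCAM counts on average. A second transcript, ENST00000472644.6, lacks exon 13 of the first (chr3:105552144-105552182, plus strand, 39 bases of coding sequence) and encodes 570 residues, 13 fewer. The pair also differ at their ends, since the second starts at chr3:105367343 where the first starts at chr3:105366909, and their lengths are 4189 and 4701 bases. The exon is printed as the coding difference between them.
ALCAM exon 13: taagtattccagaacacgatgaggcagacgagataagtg
The transcript without it took 6.77% ± 1.57, 7.59% ± 1.63 and 5.42% ± 0.289 of ALCAM counts in Mock, siNT and siELMO1 at 0 h (SD, n = 3). At 24 h its share was 8.48% ± 2.09, 9.08% ± 1.74 and 5.49% ± 0.332 in the same order. The siELMO1 libraries lay between 5.10% and 5.69% at 24 h, below all Mock libraries (7.15% to 10.9%) and all siNT libraries (7.52% to 10.9%), while at 0 h they overlapped with Mock. These shares come from StringTie's assignment of reads to transcripts that differ at their ends as well as in the exon, so a share need not reflect use of the exon, and no test was made of them.

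CD99, a small junctional glycoprotein used late in passage of leukocytes, differed by at most 0.39 log2 units in any comparison of conditions. The gene lies in the pseudoautosomal region, and its rows at chrX:2691187-2741309 (ENSG00000002586.20) and at the same position of the Y chromosome (ENSG00000292348.1) held nearly equal counts, with a ratio between 0.995 and 1.00 in all libraries. Values are those of the X row. At 0 h the Mock libraries held 54.6, 50.3 and 55.9 CPM of CD99, the siNT libraries 47.5, 50.8 and 49.6 CPM and the siELMO1 libraries 62.2, 66.0 and 65.6 CPM. Mock and siNT overlapped, and siELMO1 was above both. CD99 was 1.20-fold higher in siELMO1 than in Mock (log2 fold change 0.27 ± 0.050, adjusted p = 0.00021) and 1.31-fold higher than in siNT (0.39 ± 0.050, adjusted p = 2.1e-06). With replicate 1 alone for siELMO1 the value against Mock was 0.18 and not called (adjusted p = 0.054). The lower value in siNT than in Mock (-0.12 ± 0.050) was called at an adjusted p of 0.048, and was not called without replicate 3 of Mock at 0 h (adjusted p = 0.069), replicate 1 of siNT (0.18) or replicate 3 of siNT (0.084).

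At 24 h CD99 stood at 51.5, 51.1 and 53.3 CPM in the libraries of Mock, 56.5, 57.3 and 57.1 CPM in those of siNT and 61.7, 66.1 and 66.7 CPM in those of siELMO1. No groups overlapped. The siELMO1 libraries were 1.25-fold above Mock (log2 fold change 0.32 ± 0.050, adjusted p = 4.9e-05) and 1.14-fold above siNT (0.19 ± 0.050, adjusted p = 0.0044). For siNT against Mock the value was 0.13 ± 0.050 (adjusted p = 0.033), and the call was lost without replicate 1 of Mock (adjusted p = 0.11), replicate 2 of Mock (0.093), or replicate 1, 2 or 3 of siNT (0.057, 0.079 and 0.064).

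CD99 rose after poly(I:C) in siNT (1.16-fold, log2 change 0.21 ± 0.050, adjusted p = 0.0017), and was not called in Mock (-0.05 ± 0.050, adjusted p = 0.45) or siELMO1 (0.0054 ± 0.050, adjusted p = 0.94). The response of siNT was larger than that of Mock by 0.26 ± 0.070 log2 units (adjusted p = 0.0099). siELMO1 less siNT was -0.20 ± 0.070 (adjusted p = 0.031), and 6 of 12 libraries each ended this call when left out, namely replicates 1 and 3 of siNT at 0 h, replicates 2 and 3 of siELMO1 at 0 h, replicate 2 of siNT at 24 h and replicate 1 of siELMO1 at 24 h, with adjusted p from 0.050 to 0.087. With replicate 1 alone for siELMO1 at 0 h it was -0.13 and not called (adjusted p = 0.28). In Mock, the value without replicate 2 at 0 h was -0.12 (adjusted p = 0.050, just under the threshold), and with library totals in place of TMM scaling it was -0.17 and called (adjusted p = 0.0066).

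CD99 counts were split among several transcripts. ENST00000624481.4 held 43.1% to 57.2% and ENST00000381192.10 held 20.5% to 41.0% of the counts on average in the 6 conditions. They encode 184 and 185 residues and differ by 3 coding bases. ENST00000611428.5, which has a further exon of 18 bases and encodes 160 residues, held 10.8% to 18.2%. Within siELMO1 at 0 h the share of ENST00000381192.10 ran from 28.2% to 57.2%, a wider range than that between the means of the 6 conditions.

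**Figure D4:**
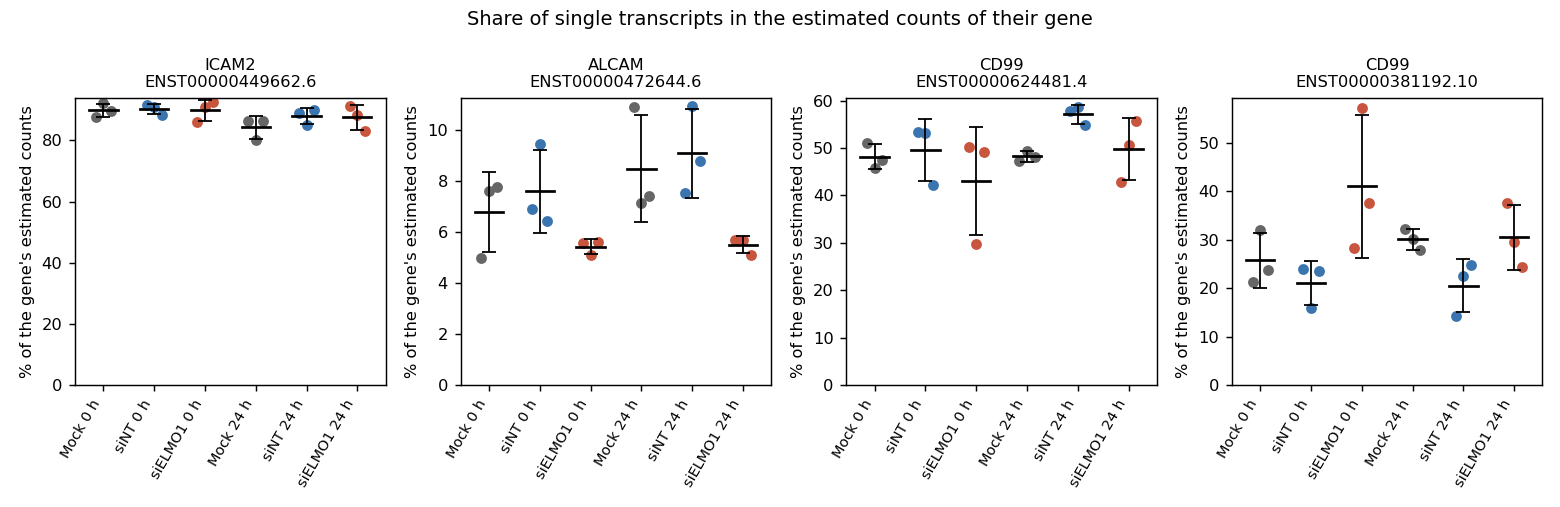
Share of single transcripts in the estimated counts of their gene, in percent, by condition. Points are libraries, and the bar and whiskers are the mean and SD of 3 libraries. At 24 h the ALCAM transcript without exon 13 is at 5.10% to 5.69% in siELMO1, below all control libraries (7.15% to 10.9%), and the CD99 shares vary widely within conditions.

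Levels of different genes were compared per length, as TPM (estimated counts per transcript length, scaled to the same sum in each library). In Mock at 0 h ALCAM was at 396 ± 10.9 TPM and ICAM2 at 369 ± 18.8 TPM, with overlapping libraries. CD99 stood at 120.4 ± 6.60 TPM on the X row and at 241 ± 13.1 TPM with both rows summed. F11R and ICAM1 were lowest of the 5, at 7.20 ± 0.686 and 6.03 ± 0.892 TPM, with overlapping libraries. At 24 h in Mock ICAM1 reached 654 ± 44.1 TPM, above ALCAM at 464 ± 14.0 TPM. In siNT at 24 h the order was ALCAM (373 ± 16.5 TPM), ICAM2 (350.3 ± 20.0 TPM, overlapping with ALCAM) and ICAM1 (235 ± 16.2 TPM), with CD99 at 241 ± 1.22 TPM when both rows are summed, within the range of the ICAM1 libraries. In siELMO1 it was ALCAM (565 ± 19.9 TPM), ICAM1 (433 ± 23.1 TPM) and ICAM2 (326 ± 23.6 TPM). F11R was the lowest of the 5 genes in each condition at 24 h, reaching 35.9 ± 5.29 TPM in siELMO1.

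**Figure D5:**
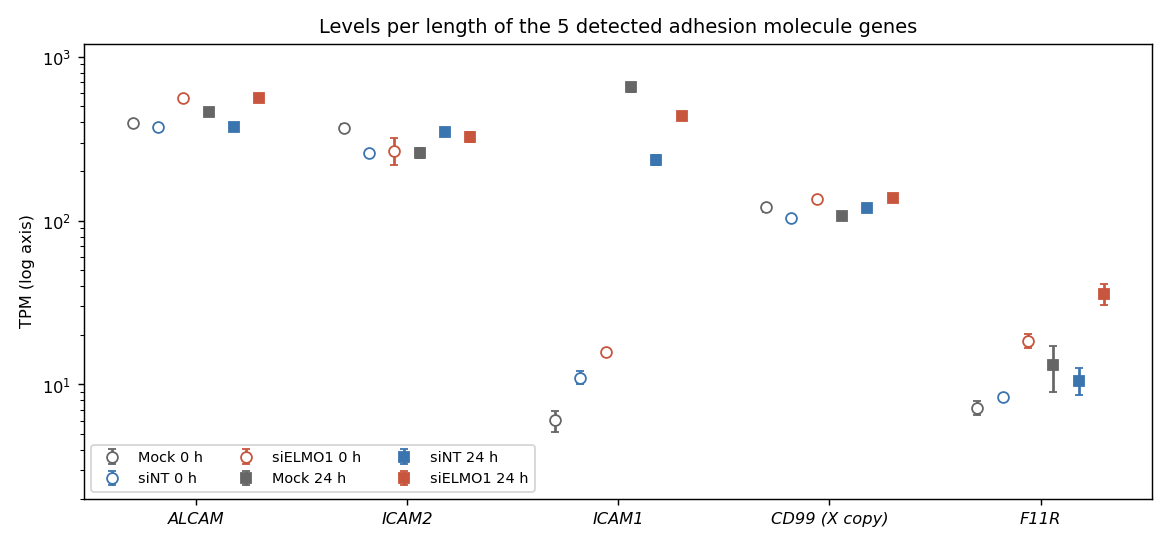
Level per length (TPM, log axis) of the 5 detected genes in the 6 conditions; open circles are 0 h, filled squares 24 h, and whiskers are the SD of 3 libraries. ICAM1 moves from 6.03 TPM, the lowest mean in Mock at 0 h, to 654 TPM, the highest mean in Mock at 24 h, and the F11R means run from 7.20 to 35.9 TPM.

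Other endothelial genes for leukocyte trafficking (21 genes, 18 tested) were mostly higher in siELMO1. Against siNT 13 were higher and 0 lower at 0 h (median log2 fold change 0.58), beside 31.3% of all genes tested in each direction. At 24 h 14 were higher and 1 lower (median 0.66), beside 26% and 26.5%. Against Mock 12 were higher and 0 lower at 0 h (median 0.43), beside 27.9% and 22.4%, and 14 were higher and 0 lower at 24 h (median 0.63), beside 21.6% and 22%. At 24 h the called genes with the largest values against siNT were CD34 (1.63 ± 0.11), SELP, the P-selectin of endothelial granules (1.38 ± 0.29), and CEACAM1 (1.10 ± 0.16). Against Mock they were SELP (2.59 ± 0.30), PECAM1, the junctional platelet-endothelial molecule (1.31 ± 0.23), and ICAM5 (0.91 ± 0.23). The list shares PECAM1 and CDH5 with the endothelial markers.

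SELP, unlike SELE, was above its detection limit in all 18 libraries. SELP stood at 2.55 ± 0.491 CPM in Mock at 0 h and at 11.3 ± 0.913 CPM in siELMO1 at 24 h. These values differ in both transfection and time, so they do not give a response of SELP to poly(I:C). After poly(I:C) 7 of the 18 rose and 6 fell in Mock, beside 30.7% and 29.6% of all genes, 8 and 2 in siNT (28.6% and 25.2%), and 8 and 4 in siELMO1 (28% and 26.9%). CEACAM1 had the largest rise in each transfection, by 4.27 ± 0.18, 3.22 ± 0.17 and 2.94 ± 0.17 log2 units in Mock, siNT and siELMO1, followed in each by CD34 (1.94 ± 0.12, 1.20 ± 0.12 and 1.90 ± 0.12). The CEACAM1 response was smaller than in Mock by 1.05 ± 0.24 log2 units in siNT (adjusted p = 0.0026) and by 1.33 ± 0.23 in siELMO1 (adjusted p = 0.00040).

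Transcription factors that act on inducible adhesion genes (12 genes, all tested) moved with poly(I:C): 9 rose and 2 fell in Mock (median log2 change 1.17), 7 and 2 in siNT (0.67), and 9 and 2 in siELMO1 (0.92), where 30.7% and 29.6%, 28.6% and 25.2%, and 28% and 26.9% of all genes tested rose and fell. KLF4 rose most of the 12 in Mock, by 4.84 log2 units. Its response also differed most between transfections, by -3.04 in siNT less Mock. RELB, an NF-kB subunit of the noncanonical pathway, rose by 4.38 ± 0.079, 3.56 ± 0.077 and 3.74 ± 0.078 log2 units in Mock, siNT and siELMO1. The precursor gene NFKB2 rose by 3.52 ± 0.079, 2.63 ± 0.076 and 3.11 ± 0.079. Against Mock at 24 h 8 of the 12 were lower and 2 higher in siNT, beside 24.9% and 25.2%, and 8 were lower and 0 higher in siELMO1, beside 22% and 21.6%. Against siNT at 24 h, siELMO1 had 5 of the 12 higher and 3 lower (median log2 fold change 0.15), beside 26% and 26.5%. KLF4 at 24 h was 2.06 ± 0.17 log2 units lower in siNT than in Mock, and 1.45 ± 0.17 higher in siELMO1 than in siNT. KLF2, a flow-responsive factor that restrains adhesion molecule expression, was 1.09 ± 0.073 log2 units higher in siNT than in Mock at 24 h and 1.49 ± 0.074 lower in siELMO1 than in siNT. At 0 h, before poly(I:C), 4 were higher and 0 lower in siNT against Mock, beside 27.6% and 24% of all genes, namely KLF4 (0.98), IRF1 (0.47), NFKB2 (0.41) and KLF2 (0.31). In siELMO1 against siNT at 0 h 1 was higher (ATF2, 0.19) and 4 were lower (KLF2, -0.74, IRF1, -0.67, NFKB1, -0.58, and NFKB2, -0.56), beside 31.3% in each direction. ICAM1 was higher in siELMO1 there.

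The 12 cytoskeletal proteins that bind or act beneath ICAM1 and VCAM1 were all tested. In siELMO1 against siNT 4 were higher and 6 lower at 0 h, beside 31.3% of all genes in each direction, and 3 were higher and 8 lower at 24 h (median log2 fold change -0.31), beside 26% and 26.5%. The caveolar protein CAV1 was 1.20 ± 0.066 log2 units higher at 24 h, while the exchange factor ARHGEF26 (-0.79 ± 0.14) and the actin crosslinker ACTN4 (-0.62 ± 0.064) were lower. CTTN, cortactin, was 1.40 ± 0.044 higher at 0 h in siELMO1 than in siNT, and 1.05 ± 0.044 lower in siNT than in Mock. After poly(I:C) 5 rose and 4 fell in Mock (30.7% and 29.6% of all genes), 6 and 3 in siNT (28.6% and 25.2%), and 4 and 4 in siELMO1 (28% and 26.9%).

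Of the 4 sheddases that release adhesion molecules from the cell surface, all tested, ADAM10, ADAM15 and ADAM17 were higher in siELMO1 than in siNT at both times, and 0 were lower, beside 31.3% of all genes in each direction at 0 h and 26% and 26.5% at 24 h. The values at 24 h were 0.66 ± 0.063 for ADAM10, 1.26 ± 0.11 for ADAM15 and 0.39 ± 0.052 for ADAM17. ADAM17 rose with poly(I:C) in each transfection, by 1.29 ± 0.053, 0.46 ± 0.052 and 0.72 ± 0.052 log2 units in Mock, siNT and siELMO1. ADAM15 rose in siNT and siELMO1, by 0.85 and 0.75 log2 units. Of the 4, 1 rose in Mock, 2 in siNT and 2 in siELMO1, and 0 fell. Among all genes tested 30.7%, 28.6% and 28% rose, and 29.6%, 25.2% and 26.9% fell. Against Mock, ADAM15 was lower in siNT by 1.61 ± 0.11 at 0 h and by 0.75 ± 0.11 at 24 h, and ADAM8 was called in no comparison.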

How the data were processed

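RNA-seq libraries were made with the KAPA Stranded mRNA kit, and the authors aligned reads with STAR to GRCh38 and assembled them with StringTie against GENCODE v44. The deposited estimated counts per gene and transcript are whole numbers, and were used as given; whether strand was used in counting is not given in the sources used here. No per-sample column was left out. Genes were kept where their counts summed to 100 or more and some library reached 1 CPM (15167 of 62754). All 18 libraries entered a single edgeR 4.0.16 quasi-likelihood fit (R 4.3.3) with TMM factors and 1 mean per condition, two-sided, Benjamini-Hochberg adjusted over all genes tested. The biological coefficient of variation was 12.2%. CPM and TPM were computed from the counts, and transcript shares need at least 50 counts. Intervals cover 95% and limits of detection cover counting error only. The fit was also run on simulated counts with known changes in siELMO1 at 24 h alone. Far fewer genes changed there than were called here, so that run checks the code and not these results.

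The 8 genes and all lists were chosen with earlier results of these data known. Named were all 8 members, ELMO1, and genes of the lists (trafficking genes, cytoskeletal partners, transcription factors, sheddases). The rule for the lists was every called gene where at most 5 were called, otherwise those of the 3 largest changes with a mean of at least 1 CPM. Not every comparison names all the genes that this rule gives. Further genes were chosen after their values were seen, among them genes overlapping a member. Alternatives were DESeq2 1.42.0, limma-voom 3.58.1, other scalings and filters, a replicate block, fits of the compared libraries alone, a fold above 2, and leaving out each library. The refits with CD99 rows summed and with replicate 1 alone for siELMO1 at 0 h were added after seeing the data. The labels number the replicates in every condition. Same-numbered libraries deviated together (r over 0.1 for all 3 numbers, over 11031 genes) in 1 of 15 pairs of conditions, Mock and siNT at 24 h (r from 0.166 to 0.232), and over all pairs r ran from -0.254 to 0.366. Promoter windows came from RefSeq (GRCh38.p14). The summed level of the leukocyte marker list is not reported here.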

Additional observations from a re-analysis of the deposited data

Results flagged for a closer look

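Of 15 differences between the poly(I:C) responses of 2 transfections that were tested for the 5 genes, 9 passed the interaction test in edgeR, and they are listed here because the response differed between groups. For ICAM1 the response differed by -2.48 log2 units in siNT less Mock, by -2.14 in siELMO1 less Mock and by 0.34 in siELMO1 less siNT. For ICAM2 the difference was 0.84 in siNT less Mock and 0.68 in siELMO1 less Mock, and the response itself was opposite in direction to that in Mock (in siELMO1 at 0.061 and not called, adjusted p = 0.60, with replicate 1 alone at 0 h). ALCAM differed by -0.34 in siNT less Mock and by -0.34 in siELMO1 less Mock. CD99 differed by 0.26 in siNT less Mock and by -0.20 in siELMO1 less siNT. These comparisons share libraries, and the part of cell death in siNT after poly(I:C) in them was not tested. Groups of 3 libraries were too small for an outlier test of single values.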

How the results depend on the processing

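Of 1015 refits of the 60 fold changes of the 5 genes, 933 kept direction and side of the threshold, 24 lost a call, 14 gained one and 44 changed sign, each of the latter in a change that was not called. Causes were not tested. Requiring a fold above 2 in addition left fewer genes by construction: at 0 h 0 in siNT against Mock (3 without that limit), 2 in siELMO1 against Mock (5) and 1 in siELMO1 against siNT (4), 1 in each of the comparisons at 24 h (4, 5 and 4) and in each response (4, 3 and 3), and 1, 1 and 0 in the differences of responses (4, 3 and 2). For the difference of responses in siELMO1 less siNT, 1 gene was called without a filter, 3 with the replicate block, 3 in a fit of the libraries compared, and 0 to 3 with a library left out. No pairing of cultures is stated, but same-numbered libraries of Mock and siNT at 24 h deviated together. In that comparison the replicate block left 4 of 4 genes called. The block added F11R in siNT less Mock (-0.64, adjusted p = 0.024) and siELMO1 less siNT (0.63, adjusted p = 0.021), and changed no other call. With replicate 1 alone for siELMO1 at 0 h, a refit chosen after seeing the data, 3 genes were called in siELMO1 against Mock at 0 h (5 in all libraries). Sign changes near 0 were as follows. ALCAM in siNT against Mock at 0 h was -0.0441 with library totals, -0.0116 with upper-quartile scaling, -0.0015 without a filter, -0.0134 in a fit of the libraries compared and -0.0266 to 0.0227 with a library left out. The ALCAM response in siNT was 0.0026 with filterByExpr and -0.0317 to 0.0212 with a library left out. In siELMO1 it was 0.086 with replicate 1 alone at 0 h, 0.0029 with DESeq2, 9e-04 with limma-voom, 0.0263 without a filter, 0.0082 with filterByExpr, 9e-04 in a fit of the libraries compared and -0.044 to 0.0233 with a library left out. The ALCAM difference in siELMO1 less siNT was -0.0214 with library totals, -0.0115 with upper-quartile scaling and -0.0418 to 0.031 with a library left out. The CD99 response in siELMO1 was -0.0553 with library totals, -0.0529 with upper-quartile scaling and -0.0216 to 0.0398 with a library left out. The F11R difference in siELMO1 less Mock was 0.0138 with limma-voom, 0.0328 with library totals, 0.0191 without a filter and -0.2584 to 0.1297 with a library left out. ICAM2 in siELMO1 against siNT at 0 h was -0.0983 to 0.1012 with a library left out. CD99 in siNT against Mock was not called without a filter at 0 h (adjusted p = 0.072) or 24 h (0.12).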
